A study of Arabidopsis thaliana with 21 samples.

Results

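The 9 genes described here encode enzymes that build the monomers of suberin in Arabidopsis thaliana. They were chosen by name and locus: the fatty acid elongase KCS2 (AT1G04220), the fatty acid hydroxylases CYP86A1 (AT5G58860) and CYP86B1 (AT5G23190), the acyltransferases GPAT5 (AT3G11430) and GPAT7 (AT5G06090), the fatty acyl reductases FAR1 (AT5G22500), FAR4 (AT3G44540) and FAR5 (AT3G44550), and the feruloyl transferase ASFT (AT5G41040). They are 9 of the 32833 genes in the deposited table, and all 9 passed the filter on low values (10 normalized counts or more in 3 libraries or more), as did 20699 genes in all.

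RNA was sequenced from whole seedlings, 7 days old, grown in liquid 0.5x MS medium. The 7 groups, each of 3 libraries, were the transgenic lines H89C4-7, H89C11-7 and H89C23-10, the transgenic lines NEET10-10, NEET5-4 and NEET11-9, and the wild type Col. The lines are named after AtNEET (AT5G51720), an iron-sulfur protein, and the title of the series calls the H89C form dominant-negative. The promoter, tag and insertion site of each line are not given in the labels, and they do not say that the 3 libraries of a group are separate cultures, so p-values cover only a spread between libraries that may be technical.

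Suberin is a polyester of glycerol, fatty acid derivatives and ferulate that is laid down between plasma membrane and cell wall. In roots it coats the endodermis and later the periderm, where it limits the passage of water and ions, and it also seals seed coats and wounds. Elongases lengthen the acyl chains, hydroxylases oxidise their far ends, reductases turn part of them into alcohols, acyltransferases join them to glycerol and ASFT adds ferulate.

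Recovered library depth ran from 17.88 to 24.68 M (mega) reads, apart from 8.24 M in Col replicate 3. The level of AtNEET served as a check of the labels. It averaged 16100 ± 895 normalized counts in H89C4-7, 2380 ± 110 in H89C11-7, 1299 ± 74.0 in H89C23-10, 32837 ± 1901 in NEET10-10, 18191 ± 528 in NEET5-4 and 332 ± 5.78 in NEET11-9, against 261 ± 93.9 in Col (SD, n = 3 each). The range of the NEET11-9 libraries, 327 to 338, lay inside that of Col, 186 to 367, though limma called AtNEET higher there (log2 0.40, adjusted p = 0.0404). Replicate 1 of Col and replicate 1 of NEET10-10 each differed from the rest of its group, with a chi-square per degree of freedom over genes of 15.4 between Col replicates 1 and 2, against 1.43 between Col replicates 2 and 3.

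In H89C4-7 and in H89C11-7 every one of the 9 genes was lower than in Col, and no library of these lines reached the lowest Col library for any of them. In H89C4-7 the falls ran from 1.47-fold for GPAT5 to 3.36-fold for FAR1, and in H89C11-7 from 1.27-fold for FAR1 to 1.69-fold for ASFT. The third H89C line, H89C23-10, had 1 gene lower, FAR1, and none higher (10.5% and 11.5% of all tested genes). Among the NEET lines, NEET10-10 had 4 genes higher and FAR1 lower (15.6% and 14.7% of all tested genes). NEET5-4 had FAR1 and FAR4 lower (16.9% of all tested genes), and NEET11-9 had no call. The counts of lower genes in H89C23-10, NEET10-10 and NEET5-4 are near these shares and are no result about the 9 genes as a set. In bulk samples fewer suberized cells and less RNA per cell cannot be told apart.

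These calls were read against the share of all tested genes that met the same rule. Falls called by limma at an adjusted p under 0.05 made up 33.0% of all tested genes in H89C4-7 and 17.9% in H89C11-7, beside 9 of 9 suberin genes in each line. Rises made up 33.6% and 19.8%, beside none of the 9. Every library lay below every Col library for 32.3% of all genes in H89C4-7 and for 21.2% in H89C11-7. The median log2 change of the 9 genes was -0.80 in H89C4-7 and -0.52 in H89C11-7, against -0.0007 and 0.0029 over all tested genes. All lines were set against the same 3 Col libraries. The 9 genes were chosen with earlier results of these data known, so these shares describe them and do not test the set.

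**Figure D1:**
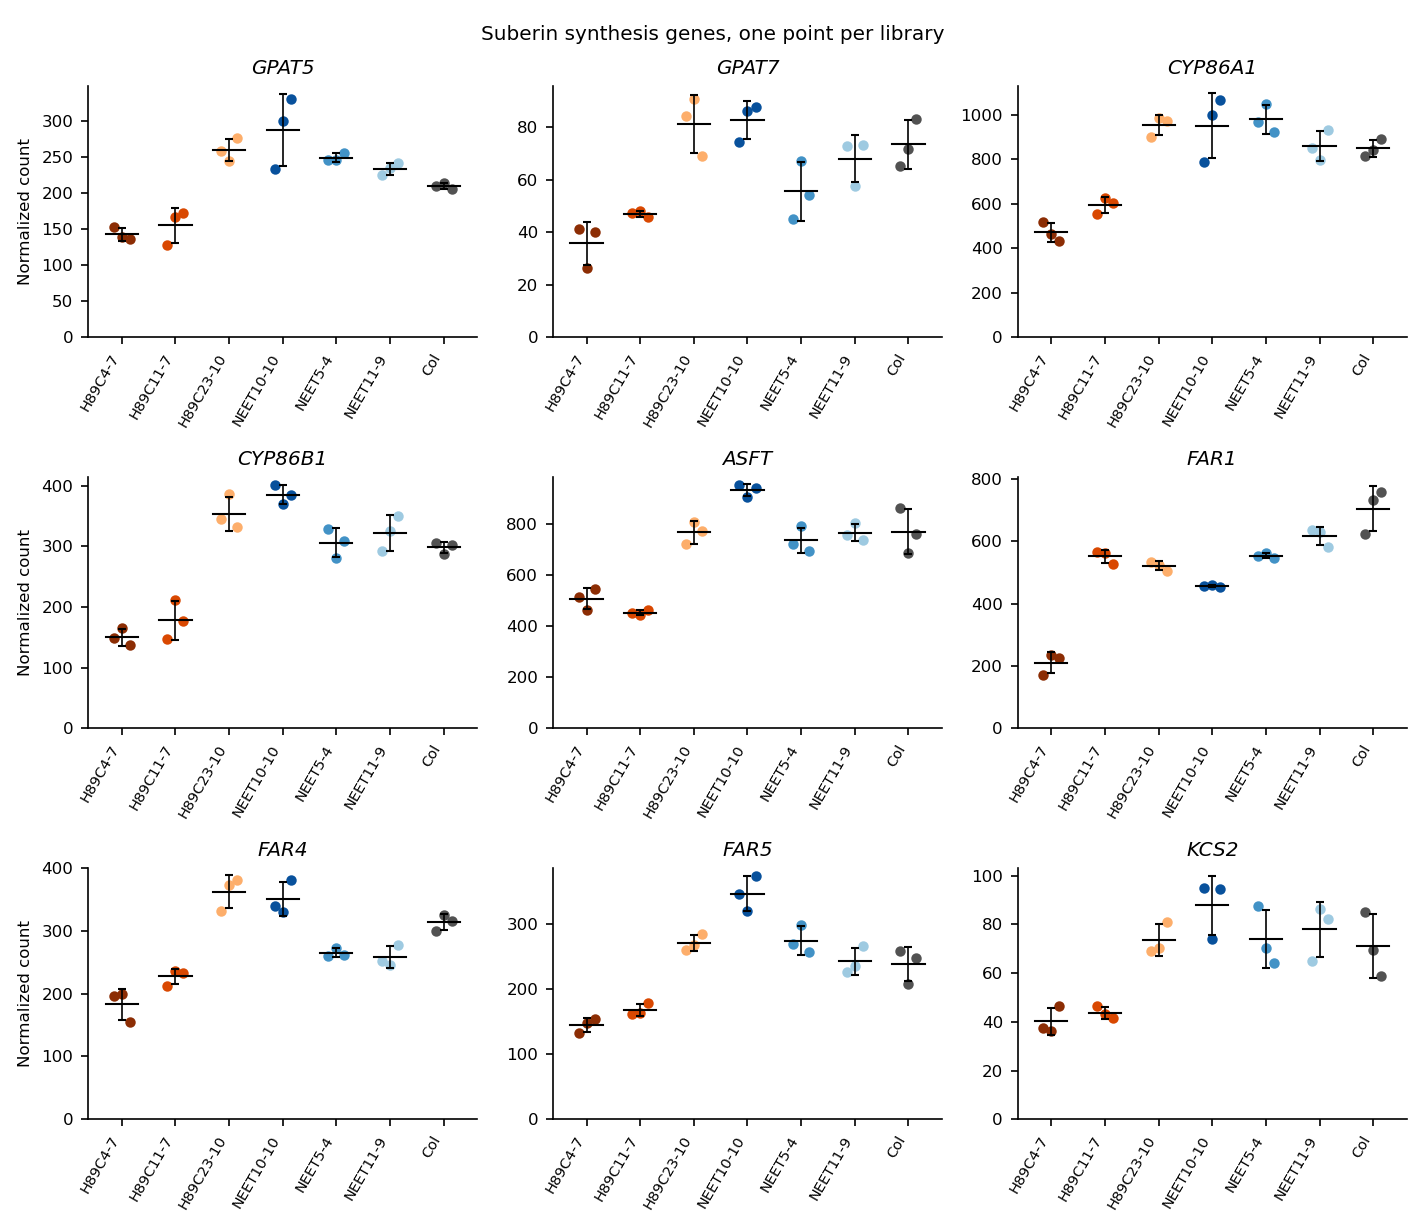
Normalized counts of the 9 genes (vertical axes, from 0) in each library of the 7 groups (horizontal axes), with black bars for the mean and SD of 3 libraries. H89C4-7 and H89C11-7 lie below Col in all 9 panels, and in the FAR1 panel H89C4-7 lies alone near the bottom at 172 to 234.

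Levels were compared between genes per kilobase of exon, in Col. CYP86A1 was at 456 ± 20.7 normalized counts per kb, ASFT at 422 ± 48.8 and FAR1 at 311 ± 31.4 (SD, n = 3). CYP86B1 followed at 128, FAR4 at 107, GPAT5 at 105 and FAR5 at 80.3, and GPAT7 and KCS2 were lowest at 39.1 and 34.8. The low genes rest on few reads: the smallest recovered count was 24 for KCS2 and 26 for GPAT7, against 310 for ASFT.

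KCS2 (chr1:1119699-1122786, minus strand) encodes a 3-ketoacyl-CoA synthase that elongates acyl chains for root suberin. Its normalized counts were 37.5, 36.4 and 46.7 in H89C4-7 and 46.4, 43.1 and 41.7 in H89C11-7, against 84.9, 69.6 and 58.8 in Col. Both lines lay wholly below Col, by log2 -0.80 ± 0.17 (SE; limma adjusted p = 0.000163) in H89C4-7 and -0.68 ± 0.17 (limma adjusted p = 0.00235) in H89C11-7. H89C23-10 ranged from 69.1 to 81.1, NEET10-10 from 74.0 to 94.9, NEET5-4 from 64.2 to 87.5 and NEET11-9 from 65.2 to 86.3, all overlapping Col and none called. A non-coding gene on the opposite strand, AT1G04247, spans 2302 bases of KCS2, and without the strand setting of the counting their reads cannot be told apart. The antisense gene had 18.1 to 31.3 normalized counts in H89C4-7, 10.5 to 18.3 in H89C11-7, 35.0 to 40.4 in H89C23-10, 37.9 to 91.9 in NEET10-10, 32.6 to 45.5 in NEET5-4 and 29.3 to 52.2 in NEET11-9, against 27.0 to 41.1 in Col. Its part in the KCS2 values was not tested. KCS2 and its close copy KCS20 are 84.1% identical over the coding sequence, with a longest shared run of 53 bases, and KCS20 changed less in H89C4-7 (log2 -0.36, limma adjusted p = 0.000368) and was not called in H89C11-7 (log2 0.01). The difference between the copies was not tested.

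CYP86A1 (chr5:23765791-23768111, minus strand) encodes the hydroxylase that acts on the shorter acyl chains of root suberin. It held 517, 463 and 435 normalized counts in H89C4-7, 553, 625 and 604 in H89C11-7, 902, 988 and 974 in H89C23-10, 789, 999 and 1067 in NEET10-10, 968, 1048 and 923 in NEET5-4 and 849, 798 and 934 in NEET11-9, against 817, 841 and 892 in Col. H89C4-7 was the lowest group, H89C11-7 came next without overlap, and each of the other 4 lines overlapped Col or lay above it. The change was log2 -0.85 ± 0.09 (limma adjusted p = 4.88e-09) in H89C4-7 and -0.52 ± 0.09 (limma adjusted p = 4.53e-05) in H89C11-7. H89C4-7 was also below H89C11-7, by log2 -0.33 ± 0.09 (limma adjusted p = 0.00185).

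CYP86B1 (chr5:7803141-7805968, minus strand) encodes the hydroxylase of the very long chains. Its normalized counts were 149, 165 and 137 in H89C4-7, 146, 211 and 177 in H89C11-7, 345, 386 and 332 in H89C23-10, 401, 370 and 384 in NEET10-10, 329, 280 and 309 in NEET5-4 and 292, 326 and 350 in NEET11-9, against 306, 288 and 302 in Col. H89C4-7 and H89C11-7 overlapped each other and lay below all other groups, while NEET10-10 lay above all Col libraries. The falls were log2 -0.99 ± 0.11 in H89C4-7 (limma adjusted p = 9.48e-09) and -0.76 ± 0.11 in H89C11-7 (limma adjusted p = 3.64e-06). The rise in NEET10-10 was log2 0.37 ± 0.11 (limma adjusted p = 0.0102).

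GPAT5 (chr3:3595694-3597952, plus strand) and GPAT7 (chr5:1835047-1837037, plus strand) encode glycerol-3-phosphate acyltransferases whose products feed the polymer, and GPAT5 is needed for suberin of roots and seed coats. GPAT5 held 153, 139 and 136 normalized counts in H89C4-7, 128, 167 and 172 in H89C11-7, 258, 245 and 276 in H89C23-10, 233, 300 and 331 in NEET10-10, 246, 245 and 256 in NEET5-4 and 225, 235 and 241 in NEET11-9, against 210, 214 and 206 in Col. The 4 lines other than H89C4-7 and H89C11-7 all lay above Col without overlap, but limma called only NEET10-10 (log2 0.44 ± 0.11, adjusted p = 0.00426), and that call was lost when the fit held these 2 groups alone (adjusted p = 0.0516). GPAT7 ranged from 26.3 to 41.1 in H89C4-7 and from 45.8 to 48.1 in H89C11-7, against 65.3 to 83.4 in Col. Its falls were log2 -1.04 ± 0.18 in H89C4-7 (limma adjusted p = 1.61e-05) and -0.62 ± 0.18 in H89C11-7 (limma adjusted p = 0.00752). In NEET5-4 GPAT7 ranged from 45.1 to 67.3 and overlapped Col, at log2 -0.41 ± 0.18 (limma adjusted p = 0.0882), and without NEET5-4 replicate 2 it was called lower (limma adjusted p = 0.0369).

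FAR5, FAR4 and FAR1 reduce acyl chains to the primary alcohols of suberin, in order of increasing chain length. FAR4 (chr3:16123426-16128030, plus strand) and FAR5 (chr3:16137576-16142270, plus strand) are neighbours 9545 bases apart, with 1 annotated gene between them that is at 0 in every library. FAR4 ranged from 155 to 199 normalized counts in H89C4-7, 213 to 236 in H89C11-7, 332 to 381 in H89C23-10, 330 to 381 in NEET10-10, 261 to 273 in NEET5-4 and 245 to 277 in NEET11-9, against 299 to 325 in Col. FAR5 ranged from 133 to 154 in H89C4-7, 161 to 179 in H89C11-7, 260 to 284 in H89C23-10, 320 to 374 in NEET10-10, 257 to 299 in NEET5-4 and 227 to 266 in NEET11-9, against 209 to 259 in Col. Both neighbours were thus lowest in H89C4-7 and next lowest in H89C11-7. In NEET10-10 both lay above every Col library, FAR5 at its highest and FAR4 at log2 0.16 without a call. In NEET5-4 and NEET11-9 FAR4 lay below Col, called in NEET5-4 alone, and FAR5 overlapped Col. The ratio of FAR4 to FAR5 normalized counts was 0.98 to 1.03 in NEET10-10, 0.91 to 1.02 in NEET5-4 and 1.04 to 1.11 in NEET11-9, against 1.16 to 1.55 in Col. In the H89C lines it was 1.01 to 1.47 in H89C4-7, 1.30 to 1.44 in H89C11-7 and 1.28 to 1.39 in H89C23-10, each overlapping Col. All 9 NEET libraries lay below the lowest Col library on this ratio, which was picked out after its values were seen and was not tested. The coding sequences of FAR4 and FAR5 are 73.8% identical with no shared run longer than 17 bases.

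FAR4 fell by log2 -0.78 ± 0.09 in H89C4-7 (limma adjusted p = 5.00e-08) and -0.46 ± 0.09 in H89C11-7 (limma adjusted p = 0.000289). FAR5 fell by log2 -0.71 ± 0.10 in H89C4-7 (limma adjusted p = 4.57e-07) and -0.50 ± 0.10 in H89C11-7 (limma adjusted p = 0.000207), and rose by log2 0.54 ± 0.10 in NEET10-10 (limma adjusted p = 0.000111). The call of FAR4 in NEET5-4 was weak (log2 -0.24 ± 0.09, limma adjusted p = 0.0481). It was lost without any 1 NEET5-4 library and without Col replicate 2 or 3 (limma adjusted p = 0.0672 to 0.119), and in edgeR (adjusted p = 0.0534) and DESeq2 (adjusted p = 0.0687).

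ASFT (chr5:16431304-16433305, plus strand) encodes the transferase that esterifies ferulate to hydroxylated acyl chains. Its normalized counts were 511, 463 and 546 in H89C4-7, 450, 444 and 462 in H89C11-7, 720, 807 and 769 in H89C23-10, 950, 903 and 941 in NEET10-10, 720, 790 and 694 in NEET5-4 and 756, 801 and 736 in NEET11-9, against 862, 684 and 760 in Col. ASFT was the gene of the 9 for which H89C11-7, not H89C4-7, had the lowest mean, and NEET10-10 lay above every library of every other group. The changes were log2 -0.60 ± 0.07 in H89C4-7 (limma adjusted p = 1.18e-07), -0.76 ± 0.07 in H89C11-7 (limma adjusted p = 1.37e-08) and 0.28 ± 0.07 in NEET10-10 (limma adjusted p = 0.00497). The NEET10-10 call was lost when the fit held only that line and Col (limma adjusted p = 0.0679).

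FAR1 (chr5:7470328-7474133, plus strand) had a pattern of its own. Its normalized counts were 172, 234 and 225 in H89C4-7, 565, 563 and 529 in H89C11-7, 535, 525 and 506 in H89C23-10, 458, 461 and 453 in NEET10-10, 555, 562 and 547 in NEET5-4 and 637, 629 and 583 in NEET11-9, against 625, 732 and 760 in Col. Apart from NEET11-9, whose libraries overlapped Col, every line lay wholly below Col, with H89C4-7 lowest and NEET10-10, where 4 other suberin genes were raised, next. The falls were log2 -1.75 ± 0.09 in H89C4-7 (limma adjusted p = 3.10e-15), -0.35 ± 0.09 in H89C11-7 (limma adjusted p = 0.00237) and -0.43 ± 0.09 in H89C23-10 (limma adjusted p = 0.000675). In the NEET lines they were -0.62 ± 0.09 in NEET10-10 (limma adjusted p = 4.83e-06) and -0.34 ± 0.09 in NEET5-4 (limma adjusted p = 0.00318). NEET11-9 stood at log2 -0.19 ± 0.09 (limma adjusted p = 0.165), and was called lower without Col replicate 1 (limma adjusted p = 0.0446).

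**Figure D2:**
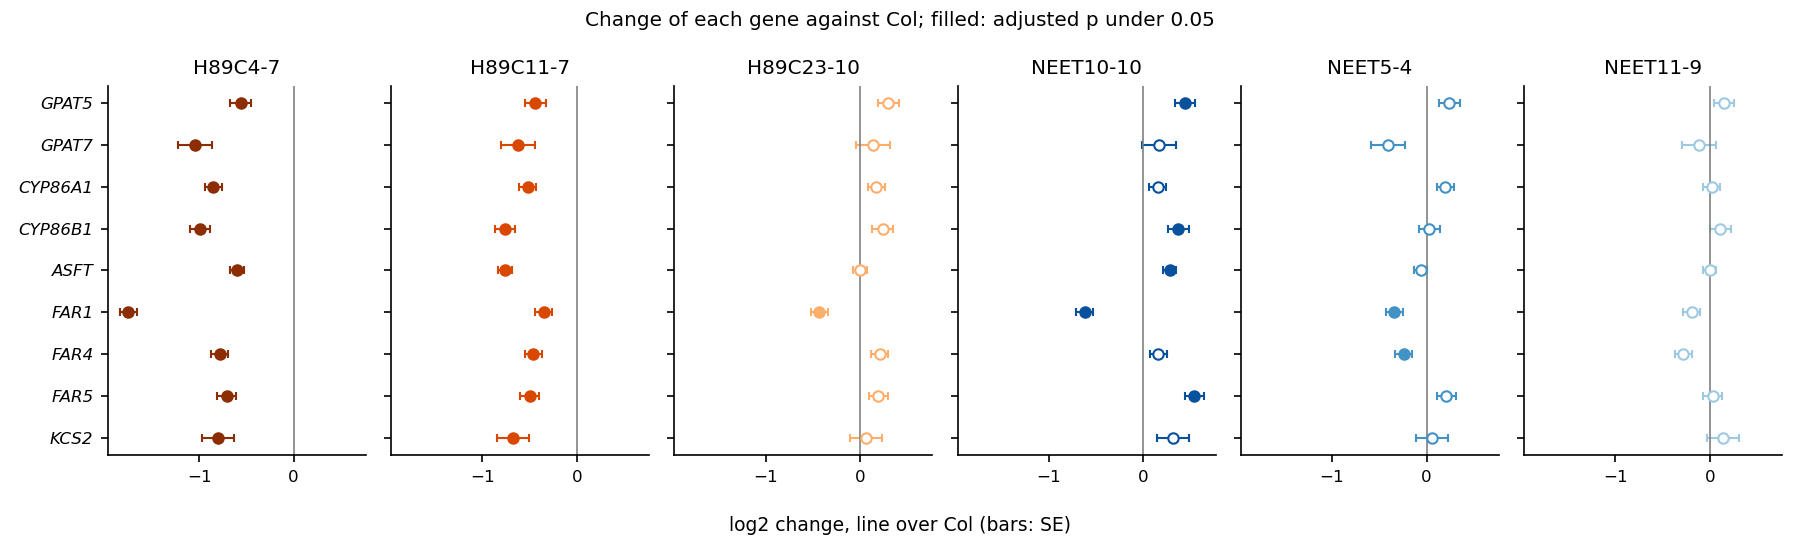
The log2 change of each gene (rows) in each transgenic line over Col (panels, horizontal axis), with SE bars and filled points for a limma adjusted p under 0.05. All 9 points are filled and left of 0 in H89C4-7 and H89C11-7, and FAR1 is the gene left of 0 in all 6 panels.

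FAR1 made up 9.0% to 12.5% of the summed normalized counts of the 9 genes in H89C4-7, 21.6% to 24.5% in H89C11-7, 13.8% to 15.3% in H89C23-10, 11.01% to 12.43% in NEET10-10, 15.5% to 16.3% in NEET5-4 and 16.5% to 18.9% in NEET11-9, against 17.7% to 21.3% in Col. The share was thus above every Col library in H89C11-7 and below every Col library in H89C4-7, H89C23-10, NEET10-10 and NEET5-4. Over the 21 libraries the log2 values of the other 8 genes correlated with each other at Pearson's r of 0.71 to 0.94 (28 pairs), while FAR1 correlated with them at 0.41 to 0.67 (8 pairs). Within groups, after removing group means, the same r ran from -0.36 to 0.72 (median 0.12) without FAR1 and from -0.33 to -0.03 with FAR1. These points share libraries and their scaling, and H89C4-7 and H89C11-7 form a cluster of their own, so the values are given as a description only.

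Upstream windows of 250 bases before each annotated start were read from RefSeq TAIR10.1 to place beside these patterns. Shown are the 4 genes that hold ACGTG, the core of abscisic acid response elements, on either strand, and CYP86B1, the gene closest to the mean of the others (r = 0.961) and the holder of the MYB motif ACCTAC. The MYB motif ACCAAC was searched as well. All are written 5′ to 3′ on the strand of the gene, and capitals mark these 3 motifs or their reverse complements.
GPAT5 (chr3:3595444-3595693, plus strand): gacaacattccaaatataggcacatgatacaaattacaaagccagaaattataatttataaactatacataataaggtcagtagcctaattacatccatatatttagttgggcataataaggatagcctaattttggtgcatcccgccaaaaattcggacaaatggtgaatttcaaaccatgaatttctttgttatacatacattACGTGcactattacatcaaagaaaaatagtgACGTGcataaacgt
GPAT7 (chr5:1834797-1835046, plus strand): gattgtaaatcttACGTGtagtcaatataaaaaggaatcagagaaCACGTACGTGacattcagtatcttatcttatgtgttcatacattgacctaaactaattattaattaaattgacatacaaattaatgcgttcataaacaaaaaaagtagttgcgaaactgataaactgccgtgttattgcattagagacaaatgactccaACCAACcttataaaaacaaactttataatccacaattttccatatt
CYP86B1 (chr5:7805969-7806218, minus strand): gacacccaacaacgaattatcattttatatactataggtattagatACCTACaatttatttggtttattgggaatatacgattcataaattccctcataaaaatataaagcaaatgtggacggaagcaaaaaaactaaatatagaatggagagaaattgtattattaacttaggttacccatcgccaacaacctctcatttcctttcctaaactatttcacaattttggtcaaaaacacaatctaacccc
FAR1 (chr5:7470078-7470327, plus strand): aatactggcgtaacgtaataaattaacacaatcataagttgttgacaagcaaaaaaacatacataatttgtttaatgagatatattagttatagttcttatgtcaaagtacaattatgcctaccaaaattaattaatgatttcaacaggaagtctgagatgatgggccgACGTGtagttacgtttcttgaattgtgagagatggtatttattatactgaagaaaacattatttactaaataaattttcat
FAR4 (chr3:16123176-16123425, plus strand): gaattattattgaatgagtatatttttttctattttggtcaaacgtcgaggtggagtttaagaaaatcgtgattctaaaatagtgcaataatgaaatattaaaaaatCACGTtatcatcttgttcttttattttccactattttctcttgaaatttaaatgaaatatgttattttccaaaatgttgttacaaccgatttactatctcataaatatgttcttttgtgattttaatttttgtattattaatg
ACGTG stood in 4 of the 9 windows, against 22.9% of 27443 windows of protein-coding genes. In GPAT7 a reverse and a forward match stand side by side. ACCTAC was found in CYP86B1, against 4.6% of all windows, and ACCAAC in GPAT7, against 11.5%. The MYB motif ACCAAA was in 4 windows (GPAT5, CYP86B1, FAR1 and FAR4), against 34.8%, and the G-box CACGTG in none, against 6.5%. FAR1, with its separate pattern, and GPAT5, GPAT7 and FAR4, with the shared one, all hold ACGTG in these windows. Whether any of these motifs bears on the patterns was not tested.

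The lines of each construct were compared in the same fit. H89C11-7 was below H89C23-10 for 8 genes, all but FAR1, with log2 differences of -0.67 to -1.0 (limma adjusted p = 2.28e-08 to 0.00232), where 11.1% of all tested genes were called lower. FAR1 was at log2 0.08 ± 0.09 in that comparison (limma adjusted p = 0.561). H89C4-7 was below H89C11-7 for FAR1, CYP86A1, FAR4 and GPAT7, where 32.3% of all tested genes were called lower. The FAR1 difference of log2 -1.40 ± 0.09 (limma adjusted p = 3.46e-13) was several times that of the other 3 (-0.32 to -0.41). The FAR4 call was lost without H89C4-7 replicate 3 (limma adjusted p = 0.0556), and the GPAT7 call (limma adjusted p = 0.0469) under several settings, up to an adjusted p of 0.322 without H89C4-7 replicate 2. ASFT, at log2 0.16, was called higher in H89C4-7 without that same library (limma adjusted p = 0.0178), and CYP86B1 lower without it (0.0286) or without H89C11-7 replicate 1 (0.00402).

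H89C4-7 and NEET5-4 differed in AtNEET by log2 -0.18, which limma did not call. Every H89C4-7 library (15072 to 16707 normalized counts of AtNEET) nevertheless lay below every NEET5-4 library (17667 to 18723). All 9 suberin genes were lower in H89C4-7 than in NEET5-4, with every library of H89C4-7 below every library of NEET5-4, where 32.8% of all tested genes were called lower and 35.1% had all libraries below. The differences ran from log2 -0.54 for ASFT and FAR4 to -1.41 for FAR1 (limma adjusted p = 1.68e-13 to 0.00324). NEET10-10 was above NEET5-4 for ASFT, CYP86B1, FAR4, FAR5 and GPAT7 (log2 0.33 to 0.58), where 15.8% of all tested genes were called higher, and below it for FAR1 (log2 -0.28), where 12.4% were called lower. The higher calls numbered 3 without NEET10-10 replicate 3, which lost GPAT7 (limma adjusted p = 0.0557) and FAR5 (0.0587). GPAT7 was also lost without NEET5-4 replicate 1 (0.106) and FAR5 without NEET5-4 replicate 3 (0.0541). CYP86B1 was lost without NEET10-10 replicate 1 (0.0668) or NEET5-4 replicate 2 (0.108), and GPAT5 was gained without NEET10-10 replicate 1 (0.0218). The FAR1 call was lost without NEET5-4 replicate 2 (limma adjusted p = 0.0534).

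In H89C23-10, where 10.5% of all tested genes were called lower and 11.5% higher, the call was FAR1, with none higher by limma, edgeR or DESeq2 and 3 higher at an unadjusted p under 0.05. In NEET10-10 15.6% of all tested genes were called higher and 14.7% lower, beside 4 and 1 of the 9. In NEET5-4 the lower calls were 2 of 9, beside 16.9% of all genes, and limma, edgeR and DESeq2 called none higher (14.1% of all genes by limma). At an unadjusted p under 0.05, 3 of the 9 were higher in NEET5-4 by limma and by edgeR, and 1 by DESeq2. In NEET11-9, where 4.49% of genes were called higher and 6.44% lower, limma, edgeR and DESeq2 called none of the 9, and 2 were lower at an unadjusted p under 0.05. The shares of all genes in this paragraph are for an adjusted p. Shares at an unadjusted p are not given, so the unadjusted counts are read no further.

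The mean of the 3 H89C lines was lower than Col for all 9 genes by limma (log2 -0.23 to -0.84), where 23.8% of all tested genes were called lower. Without H89C4-7 the lower calls were 3, CYP86B1, ASFT and FAR1. GPAT5 (limma adjusted p = 0.0382) was lost without any 1 Col library and without several H89C libraries (up to 0.104), under DESeq2 (0.0592), with no filter on low values (0.0531) and without the line H89C11-7 (0.281). GPAT7 was lost without Col replicate 3 (0.0507) and KCS2 without Col replicate 1 (0.0765). The mean of the 3 NEET lines was higher than Col for GPAT5 (log2 0.28) and FAR5 (log2 0.26), where 12.3% of genes were called higher, and lower for FAR1 (log2 -0.38), where 13.3% were called lower. No gene was called higher without NEET10-10, and 1 was called without any 1 Col library. These p-values leave out the spread between lines of a construct.

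With 1 mean per line, 3 H89C lines against 3 NEET lines, limma called no gene at all (0.00% of 20699, with 2350 at an unadjusted p under 0.05). Of all genes edgeR called none and DESeq2 155 higher and 70 lower, with none of the 9 among them. The 9 genes were lower in the H89C lines by log2 -0.22 to -0.67 (limma adjusted p = 0.438 to 0.699), and each of the 9 overlapped between the constructs, with H89C23-10 overlapping the range of the NEET lines for all of them. At an unadjusted p under 0.05 limma and DESeq2 each had 2 of the 9 lower and edgeR none.

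The export genes were called in both directions. Of 5 tested genes 2 were lower and 2 higher in H89C4-7 (median log2 -0.20), where 33.0% of all tested genes were called lower and 33.6% higher. In H89C11-7 2 were lower and 1 higher (median log2 -0.19), where 17.9% of all tested genes were called lower and 19.8% higher. With 5 genes tested, these counts are read no further. In H89C4-7 1 was higher without its replicate 1. In H89C11-7 1 was lower without its replicate 1, Col replicate 2 or Col replicate 3, and none was higher without its replicate 1 or Col replicate 1. ABCG6, a transporter required for suberin barriers, averaged 271 normalized counts in H89C4-7 and 344 in H89C11-7, against 572 in Col. The changes were log2 -1.08 in H89C4-7 (limma adjusted p = 9.93e-11) and -0.74 in H89C11-7 (limma adjusted p = 5.15e-07), and it rose in NEET10-10 (log2 0.28, limma adjusted p = 0.02), a call lost without NEET10-10 replicate 2 or 3. The other lower gene, AT2G48130, a lipid transfer protein gene named after its values were seen, was at log2 -0.63 in H89C4-7 (limma adjusted p = 0.00212) and -0.53 in H89C11-7 (limma adjusted p = 0.0171). ABCG1, another suberin transporter gene, was higher, by log2 0.49 in H89C4-7 (limma adjusted p = 0.000222) and 0.33 in H89C11-7 (limma adjusted p = 0.0143). ABCG11, which exports cuticular lipids and suberin precursors, was higher in H89C4-7 (log2 0.17, limma adjusted p = 0.0118) and lower in NEET10-10 (log2 -0.32). ABCG20 was called in neither H89C4-7 (log2 -0.20) nor H89C11-7 (log2 -0.19).

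The GDSL lipase genes listed beside suberin polymerisation were AT1G74460, AT2G19050, AT2G23540 and AT5G37690. In H89C4-7 4 of 4 were lower (median log2 -1.17), where 33.0% of all tested genes were. In H89C11-7 3 of 4 were lower (median log2 -0.81), where 17.9% of all tested genes were. AT5G37690 had 202 normalized counts in H89C4-7 and 327 in H89C11-7, against 614 in Col. These are log2 changes of -1.59 in H89C4-7 (limma adjusted p = 2.26e-12) and -0.90 in H89C11-7 (limma adjusted p = 4.44e-07). AT1G74460 and AT2G23540 were each at log2 -1.06 in H89C4-7, and at -0.86 and -0.66 in H89C11-7. AT2G19050 was at 3.33 in H89C4-7 against 8.91 in Col, too few reads to compare further, though it enters the counts and medians above.

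Of 13 tested transcription factor genes that regulate suberin 4 were lower and 3 higher in H89C4-7, shares no larger than the 33.0% and 33.6% of all tested genes, so these counts are no result about the regulators. In H89C11-7 6 were lower and 2 higher, against 17.9% and 19.8% of all tested genes. Several of these calls rest on 1 library: 2 were lower in H89C4-7 without Col replicate 2, and in H89C11-7 3 were lower without its replicate 1 and 1 was higher without its replicate 2 or 3 or Col replicate 1 or 2. MYB39, an activator of endodermal suberin, was lower in H89C4-7 (log2 -1.67, limma adjusted p = 3.46e-06) and in H89C11-7 (log2 -0.65, limma adjusted p = 0.0494). MYB41, another activator, averaged 62.5 normalized counts in H89C4-7 and 18.4 in H89C11-7, against 34.5 in Col. It was thus higher in H89C4-7 (log2 0.85, limma adjusted p = 0.00103) and lower in H89C11-7 (log2 -0.86, limma adjusted p = 0.00223). NAC046, a factor reported to promote root suberin and leaf senescence, was at 770 in H89C4-7 and 322 in H89C11-7, against 273 in Col. It was higher by log2 1.49 in H89C4-7 (limma adjusted p = 1.17e-13) and by 0.23 in H89C11-7 (limma adjusted p = 0.041). MYB70, reported to restrain suberin formation, was lower in H89C4-7 (log2 -0.82, limma adjusted p = 8.27e-09) and H89C11-7 (log2 -0.47, limma adjusted p = 0.000142). It was also lower in H89C23-10 (log2 -0.54) and NEET11-9 (log2 -0.49), where at most 1 of the 9 genes was called. Whether these regulators bear on the 9 genes was not tested.

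Genes of phenylpropanoid synthesis, which supplies ferulate, differed between the lines. In H89C4-7 4 of 9 were lower, CCoAOMT1 (log2 -0.84), 4CL1 (-0.60), PAL1 (-0.47) and HCT (-0.38), and 2 higher (1 without H89C4-7 replicate 1 or Col replicate 2 or 3), against 33.0% and 33.6% of all tested genes. In H89C11-7 6 of 9 were higher and none lower (median log2 0.18; 1 lower without Col replicate 1), where 19.8% of all tested genes were higher, while in NEET5-4, where 16.9% were lower, 9 of 9 were lower (median log2 -0.37, PAL1 log2 -0.50, limma adjusted p = 1.2e-08) with ASFT at log2 -0.06. The shared elongase subunits CER10, KCR1 and PAS2 were lower in 2 of 3 in H89C4-7 (median log2 -0.25), against 33.0% of all tested genes. In NEET10-10 3 of 3 were lower (median log2 -0.25), against 14.7%, and 1 of 3 in a fit of that line and Col alone. In NEET5-4 3 of 3 were lower (median log2 -0.22), against 16.9%. In H89C11-7 none was lower and CER10 was higher (log2 0.25, limma adjusted p = 0.0122), a call lost without Col replicate 2. Cutin genes, which use related hydroxylases and acyltransferases in shoot epidermis, were lower for 9 of 10 in H89C4-7 (median log2 -0.79), against 33.0% of all tested genes. In H89C11-7 3 of 10 were lower (median log2 -0.12), against 17.9%, a count read no further. It was 5 of 10 without Col replicate 1. In NEET10-10, where 4 suberin genes rose, 6 of 10 cutin genes were lower and none higher, against 14.7% and 15.6% of all tested genes. In a fit of that line and Col alone 3 were lower. Close relatives of the 9 enzymes, of which 11 were tested, include 6 of the cutin genes. Of these relatives 10 were lower in H89C4-7 and 5 in H89C11-7, against 33.0% and 17.9% of all tested genes. The relative FAR3, which makes wax alcohols, was lower by log2 -1.28 in H89C4-7 (limma adjusted p = 1.23e-05) and -1.23 in H89C11-7 (limma adjusted p = 7.04e-05).

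**Figure D3:**
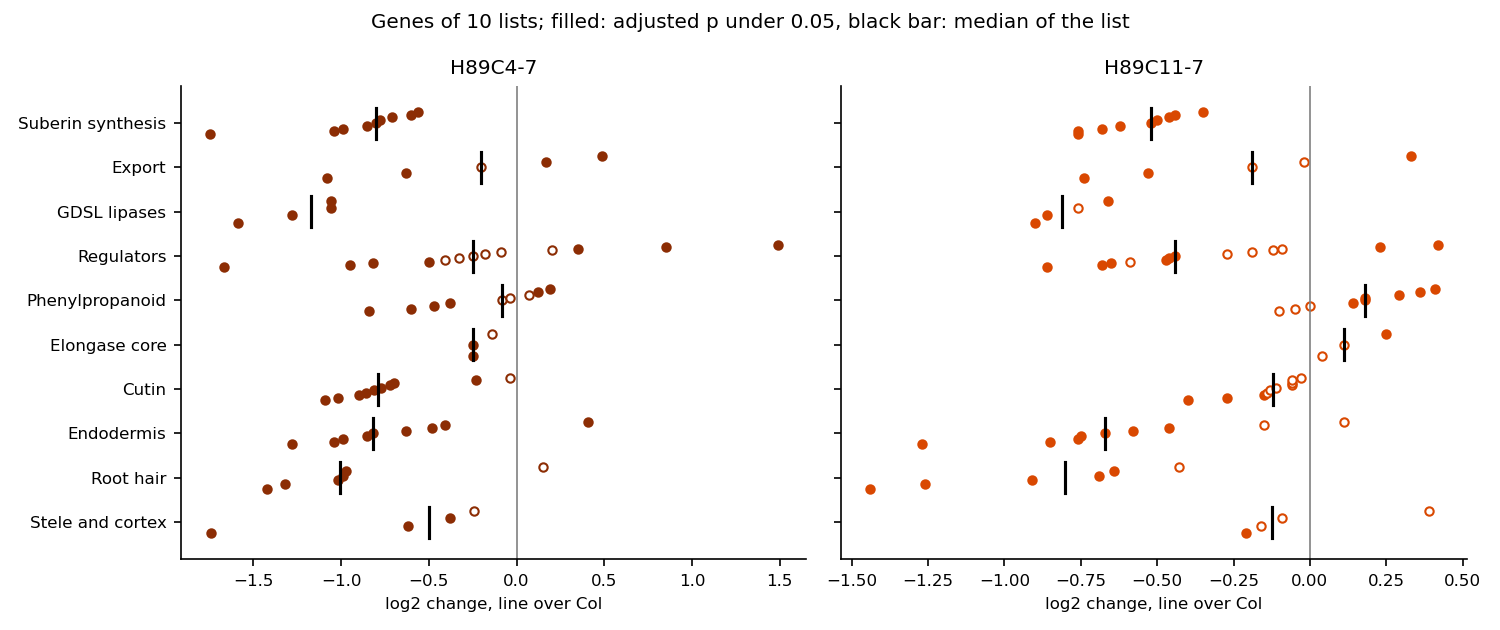
The log2 change over Col (horizontal axes) of each tested gene of 10 lists (rows) in H89C4-7 and H89C11-7, filled where the limma adjusted p is under 0.05, with a black bar at the median of the list. All genes of the suberin synthesis, GDSL lipase and cutin lists lie left of 0 in both lines. The cutin median is -0.79 in H89C4-7 and -0.12 in H89C11-7. The export, regulator, endodermis, root hair, and stele and cortex lists lie mostly left of 0 in both lines.

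Most markers of the endodermis and of root hairs were lower in the same lines, H89C4-7 and H89C11-7. Of all tested genes 33.0% were called lower and 33.6% higher in H89C4-7, and 17.9% lower and 19.8% higher in H89C11-7. Of 9 tested endodermis genes 8 were lower and 1 higher in H89C4-7 (median log2 -0.82). In H89C11-7 7 were lower and none higher (median log2 -0.67). Of 6 root hair genes 5 were lower in H89C4-7 (median log2 -1.01) and 5 in H89C11-7 (median log2 -0.80), and in the other 4 lines no root hair gene was called, although leaving out Col replicate 2 gave 1 or 2 higher calls in each of them and 1 lower call in H89C23-10. The 5 CASP genes, which mark the Casparian strip of the endodermis, summed to 701 to 1080 normalized counts in H89C4-7 and 822 to 1015 in H89C11-7, against 1410 to 1581 in Col. The peroxidase gene PER64 of the same structure averaged 263 in H89C4-7 (limma adjusted p = 2.77e-07) and 301 in H89C11-7 (limma adjusted p = 2.24e-05), against 535 in Col. SCR, an endodermal fate gene named after its value was seen, was the 1 higher in H89C4-7 (log2 0.41, limma adjusted p = 0.000108) and was not called in H89C11-7 (log2 0.11). No marker in these lists was at 0 in every library.

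The 8 suberin genes other than FAR1 summed to 1641 to 1738 normalized counts in H89C4-7 and 1745 to 1938 in H89C11-7, against 2703 to 2904 in Col. Divided by the CASP sum, they gave 1.61 to 2.34 in H89C4-7 and 1.89 to 2.12 in H89C11-7, which overlapped 1.71 to 2.03 in Col. FAR1 divided by the CASP sum was 0.16 to 0.33 in H89C4-7, below Col at 0.42 to 0.54, and 0.52 to 0.69 in H89C11-7, which overlapped Col. Over the root hair sum the 8 genes gave 3.50 to 3.98 in H89C4-7, above Col at 2.19 to 3.19, and 2.81 to 3.56 in H89C11-7, which overlapped Col. The part of cell proportions in the suberin results was not tested.

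**Figure D4:**
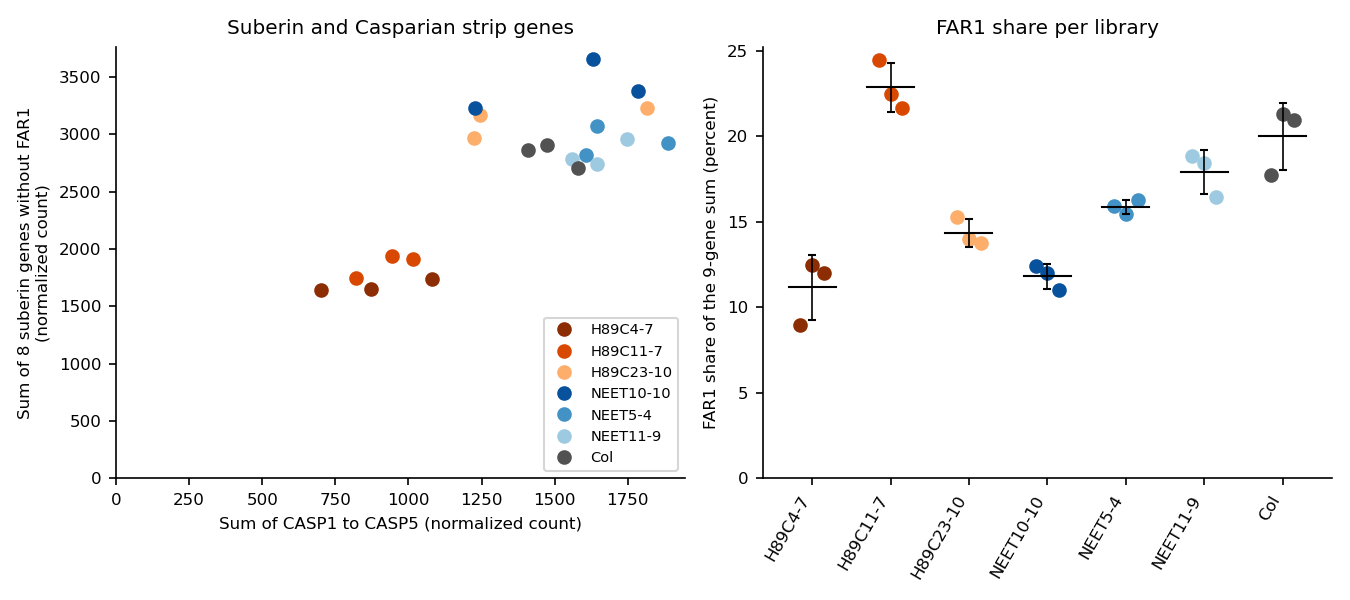
Left, the summed normalized counts of the 8 suberin genes without FAR1 (vertical) against the sum of CASP1 to CASP5 (horizontal), 1 point per library; H89C4-7 and H89C11-7 lie together at 1641 to 1938 on the vertical axis, apart from all other libraries. Right, FAR1 as a percentage of the 9-gene sum per library with mean and SD, highest in H89C11-7 and lowest in H89C4-7 and NEET10-10.

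Stele and cortex genes were lower for 3 of 4 in H89C4-7, where 33.0% of all tested genes were, and for 1 of 4 in H89C11-7, which is near the 17.9% of all tested genes. Of 7 tested seed genes 5, all for storage proteins, were higher in each of H89C4-7 and H89C11-7, against 33.6% and 19.8% of all tested genes. Among them, SESA1, SESA2 and SESA3 were near 0 in Col (means of 0.0, 0.655 and 0.298) and at most 2.07 in any NEET library. These genes passed the filter on low values only through H89C libraries, which favours a call there, so the counts of higher seed genes are read no further. The oleosin gene OLEO2 was lower, by log2 -1.13 in H89C4-7 and -1.71 in H89C11-7, and OLEO1 was not called. In H89C23-10 3 seed genes were higher, SESA1, SESA2 and SESA3, against 11.5% of all tested genes. The count was 1 without its replicate 3, and 5 without its replicate 1 or Col replicate 2. The summed normalized counts of 8 seed genes ranged from 341 to 788 in H89C4-7, 198 to 567 in H89C11-7, 130 to 343 in H89C23-10, 94.9 to 132 in NEET10-10, 177 to 189 in NEET5-4 and 168 to 214 in NEET11-9, against 88.3 to 271 in Col. The highest sums were thus in the H89C lines, and those of H89C11-7 and H89C23-10 overlapped Col; the part of seed tissue in the suberin results was not tested. Abscisic acid induces suberin in roots. Of 6 of its response genes 3 were higher and 2 lower in H89C4-7 (33.6% and 33.0% of all tested genes), 1 higher and 3 lower in H89C11-7 (19.8% and 17.9%) and 2 higher and 1 lower in H89C23-10 (11.5% and 10.5%). In NEET10-10 5 were higher and 1 lower (15.6% and 14.7% of all tested genes), and in NEET5-4 1 was higher and 2 lower (14.1% and 16.9%), with 0 higher without NEET5-4 replicate 2 or Col replicate 1 and 2 higher without NEET5-4 replicate 3. In NEET11-9, where none of the 9 suberin genes was called, 6 of 6 were higher, against 4.49% of all tested genes. The part of abscisic acid in the suberin results was not tested.

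The genes most like the 9 were ranked by Pearson's r between their log2 values and the mean standardized profile of the 9 over the 21 libraries, among 20690 other tested genes. They were AT3G50400, a GDSL lipase gene (r = 0.979), ABCG6 (0.975), AT1G51830 and AT1G51850, leucine-rich repeat kinase genes (0.968 and 0.967), AT1G74460, a GDSL lipase gene (0.967), AT1G08890, a major facilitator gene (0.964), AT1G51840, a kinase-like gene (0.963), and AT2G35380, a peroxidase gene (0.962). AT3G50400 averaged 49.8 normalized counts in H89C4-7, 75.6 in H89C11-7, 137 in H89C23-10, 172 in NEET10-10, 129 in NEET5-4 and 132 in NEET11-9, against 125 in Col. AT1G51830, AT1G51840 and AT1G51850 are neighbours of 1 gene family, and how reads were divided between them is uncertain. H89C4-7 and H89C11-7 form a cluster of their own over the 21 libraries, so these r values are a description only. The root hair genes listed above had r of 0.533 (RSL4) to 0.936 (LRX1) with the same profile. FAR1 itself had r = 0.586 with the mean of the other 8 genes, below the r of 0.853 to 0.961 of each other member with its own remainder.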

How the data were processed

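RNA-seq of 21 libraries from whole Arabidopsis seedlings, 3 in each of 7 groups taken from the labels, was deposited as 1 table of 32833 genes. Its unit is a normalized signal: the authors divided gene counts by 1 size factor per library. The submitters' processing notes name the TAIR10 genome, STAR 2.4.0.1, FastQC 0.11.7 and DESeq2 1.20.0. The counter, its strand setting and its handling of multiply mapped reads were not given in the sources used here. Whole reads were recovered for 100.0% of values within 0.001, giving 8.24 to 24.68 M reads per library (median 21.16 M).

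Values were tested as log2(normalized count + 1), which understates the change of low genes, for 20699 genes with at least 10 in at least 3 libraries. The test was limma-trend (limma 3.58.1, R 4.3.3) with 1 mean per group over all 21 libraries, adjusted by Benjamini-Hochberg over all tested genes and called under 0.05, two-sided. It was tested on simulated data. H89C lines were compared with NEET lines on 6 line means. Alternatives were pseudocounts of 0.5 and 5, no filter, at least 50 in at least 3 libraries, TMM scaling, edgeR 4.0.16 and DESeq2 1.42.0 on the recovered reads, the 2 groups compared alone, the replicate number as a block, and leaving out each library or line. Named are the 9 genes, AtNEET, up to 4 genes per list (those of smallest adjusted p against Col), the listed relatives, and the 8 other genes most like the 9; any other gene was chosen after its values were seen. The 9 genes and all lists were chosen with earlier results of these data known. Symbols, gene models and sequences came from RefSeq TAIR10.1, where 32548 of the genes were found. Replicate numbers did not pair libraries: of 63 same-number correlations of deviations from group means none was over 0.1 (-0.07 to 0.09).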

Additional observations from a re-analysis of the deposited data

Results flagged for a closer look

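Each of the following differences between transgenic lines was called in the test of the difference itself, by limma with Benjamini-Hochberg adjustment over all tested genes, with 3 libraries per line. Values are log2, the first line over the second.

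H89C4-7 was lower than H89C11-7 for FAR1 (-1.40), GPAT7 (-0.41), CYP86A1 (-0.33) and FAR4 (-0.32). The GPAT7 and FAR4 calls in this comparison were each lost when some single libraries were left out. H89C11-7 was lower than H89C23-10 for CYP86B1 (-1.0), GPAT7 (-0.77), ASFT (-0.76), GPAT5 (-0.75), KCS2 (-0.74), FAR5 (-0.69), CYP86A1 (-0.68) and FAR4 (-0.67).

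H89C4-7 was lower than NEET5-4 for FAR1 (-1.41), CYP86A1 (-1.05), CYP86B1 (-1.03), FAR5 (-0.92), KCS2 (-0.86), GPAT5 (-0.80), GPAT7 (-0.63), ASFT (-0.54) and FAR4 (-0.54). NEET10-10 was higher than NEET5-4 for GPAT7 (0.58), FAR4 (0.40), FAR5 (0.34), ASFT (0.34) and CYP86B1 (0.33), and lower for FAR1 (-0.28). Of these, the GPAT7, FAR5, CYP86B1 and FAR1 calls were each lost when some single libraries were left out. The levels in each library stand with the gene in the results, and the shares of all tested genes called stand there with each comparison.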

How the results depend on the processing

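All 9 falls in H89C4-7 and all 9 in H89C11-7 against Col were called under every alternative run, as were the 8 falls of H89C11-7 below H89C23-10 and the 9 of H89C4-7 below NEET5-4. No direction of a called value reversed. The following counts of genes moved, and the cause was not tested except where libraries or lines were left out. In NEET5-4 the lower calls were 1 in place of 2 with no filter, TMM scaling, edgeR, DESeq2, the 2 groups alone and the replicate block, and 1 to 2 without 1 library. In H89C23-10 the replicate block added 1 higher call, GPAT5. With the 2 groups alone the higher calls in NEET10-10 were 2 in place of 4, and ASFT gave 1 higher call in H89C4-7 over H89C11-7, as it did without 1 library (0 to 1). In NEET11-9 the stricter minimum of 50 gave 1 lower call (FAR4), as did leaving out Col replicate 1 (FAR1; 0 to 1). The H89C mean had 3 lower calls without H89C4-7, and 8 in place of 9 under DESeq2, which lost GPAT5. The NEET mean had 0 higher and 2 lower calls without NEET10-10, and 1 to 3 higher without 1 library. NEET10-10 over NEET5-4 gave 3 to 5 higher and 0 to 1 lower calls without 1 library. Since the replicate numbers did not pair libraries, the block changes only these counts and the calls of FAR5 (adjusted p = 0.0497) and GPAT7 (0.0552) in H89C4-7 against H89C11-7. Of the single-gene values under all alternatives, 55 lost and 14 gained a call. Depth limits KCS2, GPAT7 and every gene in Col replicate 3.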
